A study of Homo sapiens with 6 samples.

Results

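The Notch receptors NOTCH1, NOTCH2 and NOTCH3, the direct Notch targets DTX1, NRARP, HES1, HES4 and HEY1, and 2 proteins of the nuclear Notch complex, RBPJ and MAML1, were followed in RPMI-8402 cells. This established cell line comes from a human T-cell acute lymphoblastic leukaemia (T-ALL). Its cells received lentivirus for a control, named a control shRNA in the study's methods, for shGATA3, a short hairpin RNA (shRNA) aimed at GATA3, or for shTCF1, one aimed at TCF7, which encodes TCF1. Cells positive for EGFP were sorted after 48 h, and per the methods the control and GATA3 vectors carry EGFP in place of a drug resistance gene. RNA of each sample was hybridised to 1 custom 1-colour Agilent array, and each of the 3 groups had 2 arrays. Members were found by the RefSeq accession that the scanner files give for a probe, which left 13 probes for the 10 genes among 57176 probes. NOTCH1, NOTCH2 and NRARP had 2 probes each and the others had 1. A probe was tested if in some group both arrays had it well above background, which held for 12 of the 13, and 11 were above it on all 6 arrays. All samples came from 1 cell line, and the study's methods name a single hairpin against GATA3, so the values describe that line and those vectors.

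Notch receptors are cut at the membrane after they bind a ligand on a neighbouring cell. The intracellular part moves to the nucleus, joins the DNA-binding protein RBPJ and the coactivator MAML1, and switches on target genes. In the thymus this signal drives precursors towards the T lineage, and activating NOTCH1 mutations are a common lesion of T-ALL. GATA3 and TCF1 are T-lineage transcription factors, and the comparisons ask how Notch genes stood on arrays of cells given a hairpin against either.

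Before normalization the control arrays were brighter, with a 75th percentile of the intensity of 278 ± 12.5 (SD, n = 2), against 176 ± 0.802 (SD, n = 2) on the shGATA3-labelled arrays and 172 ± 9.52 (SD, n = 2) on those labelled shTCF1. The 6 arrays lay on 1 slide, each with 2 position numbers. The first number was 2 for the control arrays and 1 for all others. The second was 2 and 3 for control, 3 and 4 for shGATA3 and 1 and 2 for shTCF1. No group shared a position with another, so slide position and group cannot be told apart in any of the 3 contrasts. The label of 1 group was not borne out by its target: GATA3, measured by 1 probe, had log2 intensities of 9.52 and 9.53 on the control arrays and 9.43 and 9.52 on the shGATA3-labelled arrays (difference -0.05, adjusted p = 0.787 in limma). Both TCF7 probes fell on the arrays labelled shTCF1, by 1.31 and 1.48 on the log2 scale (adjusted p = 0.00415 and 0.00473 in limma). All 8 T-lineage leukaemia markers (CD7, CD5, CD2, CD3D, CD3E, LCK, TAL1 and LMO1) were well above background on all 6 arrays. Their summed normalized intensity was 77285 to 77498 on the control arrays, 109783 to 129038 on the shGATA3-labelled arrays and 69526 to 86573 on those labelled shTCF1. Of the other lineages, 3 of 4 B cell, 2 of 3 myeloid, 2 of 4 NK cell and 1 of 3 stromal markers with a probe passed on all 6 arrays, while KLRD1, COL1A2 and DCN passed on none. Sums took only markers with a tested probe, 2 NK cell, 3 B cell, 3 myeloid and 1 stromal, so KLRD1 and GNLY were left out. The summed NK cell markers ranged from 2016 to 2043 on the control arrays, 2095 to 2356 on the shGATA3-labelled arrays and 1814 to 2030 on those labelled shTCF1. The B cell markers ranged from 1933 to 5348, 2166 to 3783 and 3694 to 4132 in the same order. The myeloid sums lay between 206 and 242 and the stromal ones between 76.7 and 104 in all groups. The part of these shifts in the results on Notch genes was not tested. Fewer cells of a kind and less RNA per cell cannot be told apart in such bulk samples.

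Levels are normalized log2 intensities, in which 1 unit is a factor of 2. No result on Notch genes compares the levels of different probes, although the brightest probe stands for a pathway gene. The marker sums above do weigh each probe by its level. Differences are given with the standard error (SE) of limma, with p adjusted (Benjamini-Hochberg) across all 31134 probes tested in a contrast. A probe was called when its adjusted p was below 0.05. Between the shGATA3-labelled arrays and control, 6 of the 12 tested probes were called, 5 of them higher and 1 lower. Over all probes tested in that contrast 6.68% were called, 2.79% higher and 3.89% lower. The study itself names DTX1, NRARP, HES4 and NOTCH3 as upregulated after GATA3 knockdown, and these are among the probes called higher. The member list was thus not independent of these data, and the count is no test of Notch genes as a set. Between the arrays labelled shTCF1 and control, 5 of 12 were called, 4 higher and 1 lower, against 16.7% of all probes tested, 7.07% higher and 9.64% lower. Between the 2 hairpin groups, 2 of 12 were called, both higher on the shGATA3-labelled arrays, against 6.09% of all probes, 3.51% of them higher and 2.58% lower. How the calls over all probes split by direction moved with the scaling. Of those against control, the higher ones made up 41.8% for shGATA3 and 42.3% for shTCF1, and this became 53.6% and 54.8% with 75th percentile scaling and 53% and 53.3% with quantile normalization. The median difference of the 12 probes was 0.24, 0.03 and 0.17 in the 3 contrasts, and that of all tested probes was -0.01, -0.02 and -0.0046. Values of 2 groups did not overlap for 7, 10 and 8 of the 12 probes, against 60.2%, 66.9% and 52% of all tested probes, so that most probes of the array did not overlap either. Both contrasts against control used the same 2 control arrays.

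**Figure D1:**
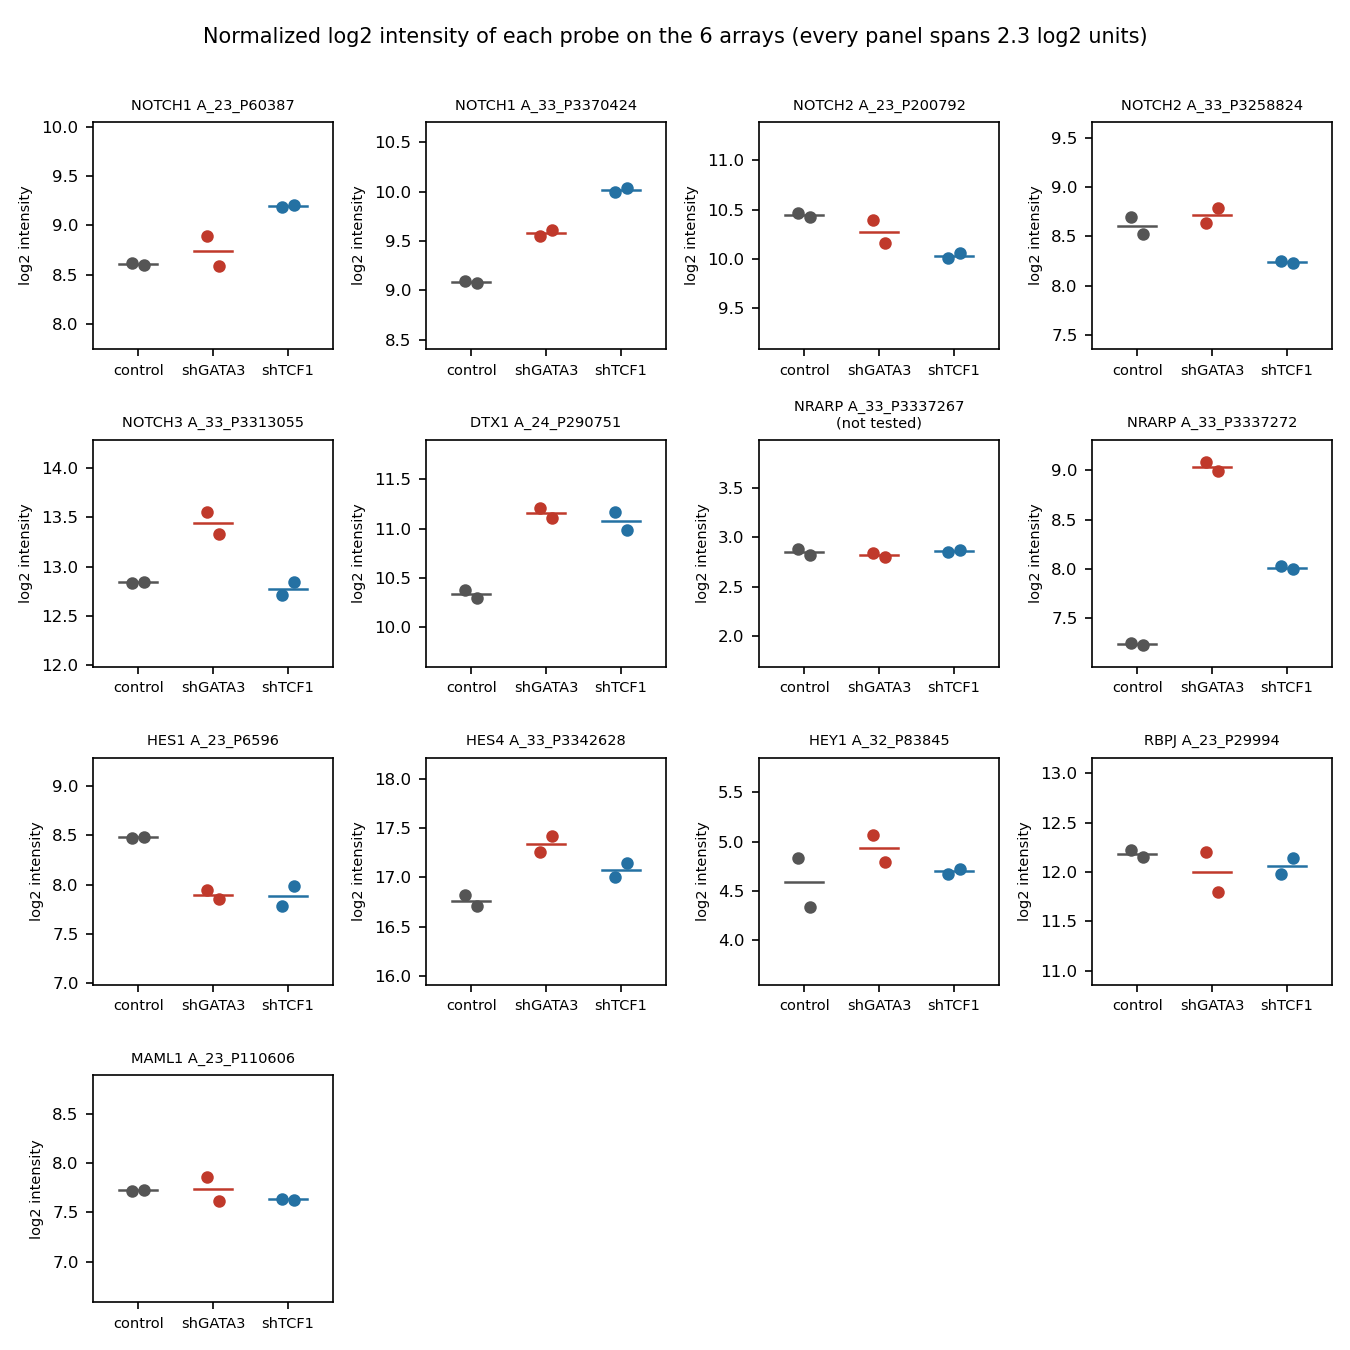
Normalized log2 intensity (vertical axis) of each of the 13 probes on the 2 control arrays, the 2 arrays labelled shGATA3 and the 2 labelled shTCF1; points are arrays and lines are group means, and every panel spans the same log2 range. NRARP A_33_P3337272 lies at 7.24 and 7.25 on the control arrays and at 8.99 and 9.08 on the shGATA3-labelled arrays.

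Of the receptors, NOTCH1 was higher under shTCF1 by both of its probes. NOTCH1 is the main Notch receptor of early T cells. Its probe A_33_P3370424 read 9.10 and 9.07 on the control arrays, 9.55 and 9.61 on the shGATA3-labelled arrays and 10.00 and 10.04 on those labelled shTCF1. The 3 groups lay apart, with control lowest and shTCF1 highest. The rise under shTCF1 was 1.91-fold, with a log2 difference of 0.94 (SE 0.10, adjusted p = 0.00668 in limma). On the shGATA3-labelled arrays the same probe rose 1.41-fold (log2 difference 0.50, SE 0.10, adjusted p = 0.0397 in limma). The other probe, A_23_P60387, was printed on 5 spots, of which 4 or 5 were used on each array, and these spots varied by a coefficient of variation of 3.33% to 6.79% within an array. It read 8.62 and 8.60 on the control arrays, 8.89 and 8.58 on the shGATA3-labelled arrays and 9.19 and 9.21 on those labelled shTCF1. Under shTCF1 it rose 1.5-fold (log2 difference 0.59, SE 0.13, adjusted p = 0.0339 in limma), whereas the shGATA3-labelled arrays overlapped with control and the difference of 0.13 (95% interval -0.19 to 0.45) was not called (adjusted p = 0.562). The shTCF1 call of A_33_P3370424 held with any 1 array left out, whereas its shGATA3 call was lost with any 1 left out (adjusted p 0.0636 to 0.196), and the shTCF1 call of A_23_P60387 was lost without either control array or either shTCF1 array (adjusted p up to 0.139). The NOTCH1 probes thus gave different calls for shGATA3, and the difference between the probes was not tested. Which stretch of the transcript each probe binds was not analysed here. When the probes of each gene were averaged, the NOTCH1 difference between the shGATA3-labelled arrays and control was 0.31 and was not called (adjusted p = 0.119). Set directly against each other, NOTCH1 was lower on the shGATA3-labelled arrays than on those labelled shTCF1, by differences of -0.44 (95% interval -0.67 to -0.20) for A_33_P3370424 and -0.46 (95% interval -0.78 to -0.14) for A_23_P60387, neither of which was called (adjusted p = 0.0579 and 0.102 in limma).

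NOTCH2, a receptor with broad roles in haematopoietic cells, was not called in any contrast. Probe A_23_P200792 read 10.47 and 10.43 on the control arrays, 10.39 and 10.17 on the shGATA3-labelled arrays and 10.01 and 10.06 on those labelled shTCF1. Probe A_33_P3258824 read 8.69 and 8.52, 8.64 and 8.79, and 8.25 and 8.22 in the same order. For both probes the 2 arrays labelled shTCF1 were the lowest of the 6, and their differences from control were -0.42 (95% interval -0.70 to -0.13, adjusted p = 0.0596) and -0.37 (95% interval -0.65 to -0.09, adjusted p = 0.0762). Averaged over both probes, NOTCH2 was called under shTCF1, with a difference of -0.39 (adjusted p = 0.0465 in limma).

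NOTCH3, a receptor that is itself a target of Notch signalling in T cells, was higher on the shGATA3-labelled arrays only by calls that depended on the setting. It read 12.83 and 12.85 on the control arrays, 13.55 and 13.33 on the shGATA3-labelled arrays and 12.72 and 12.84 on those labelled shTCF1. Both shGATA3-labelled arrays stood above the other 4 arrays. The difference from control was 0.60 (SE 0.12, 1.52-fold, adjusted p = 0.0434) and that from shTCF1 was 0.66 (SE 0.12, 1.58-fold, adjusted p = 0.0342), while shTCF1 against control gave -0.06 (95% interval -0.36 to 0.23, adjusted p = 0.742). The call against control was lost with quantile normalization (adjusted p = 0.0511), with cyclic loess (adjusted p = 0.0515) and with a first VSN fit that had not converged (adjusted p = 0.0562), and both calls were lost when any 1 of the 6 arrays was left out, with adjusted p of 0.0667 to 0.199 against control and 0.0621 to 0.121 against shTCF1.

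**Figure D2:**
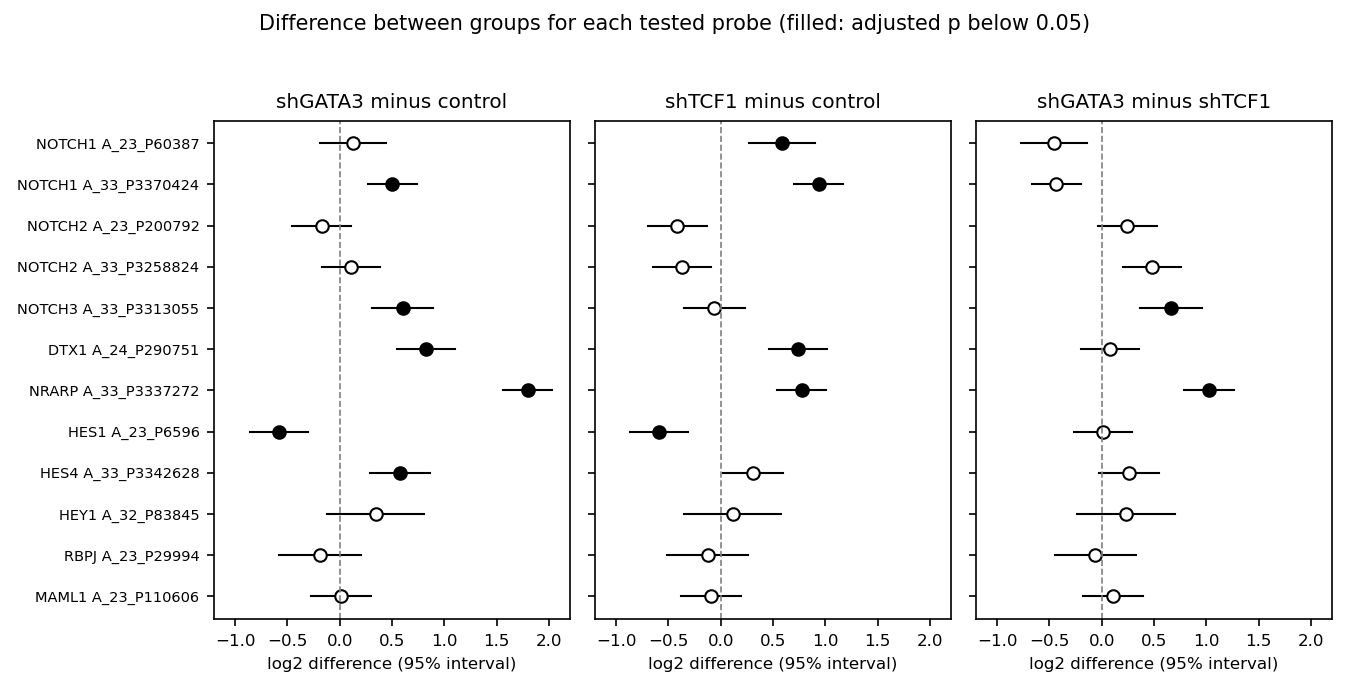
Log2 difference between group means (horizontal axis) of each tested probe, with the 95% interval of limma as a line; filled points had an adjusted p below 0.05. NRARP is filled in all 3 contrasts, at 1.80, 0.77 and 1.02, and HES1 lies below 0 in both contrasts with control, at -0.58 and -0.59.

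Among the targets, NRARP had the largest difference of the 12 probes in shGATA3 against control and in the direct comparison. NRARP encodes a small ankyrin-repeat protein that binds the Notch transcription complex and dampens it. Probe A_33_P3337272 read 7.25 and 7.24 on the control arrays, 9.08 and 8.99 on the shGATA3-labelled arrays and 8.03 and 8.0 on those labelled shTCF1. The 3 groups did not overlap, with control lowest and the shGATA3-labelled arrays highest. NRARP rose 3.47-fold on the shGATA3-labelled arrays (log2 difference 1.80, SE 0.10, adjusted p = 0.00173 in limma) and 1.71-fold under shTCF1 (0.77, SE 0.10, adjusted p = 0.0096). It was 2.03-fold higher on the shGATA3-labelled arrays than on those labelled shTCF1 (1.02, SE 0.10, adjusted p = 0.00489). The difference from control on the shGATA3-labelled arrays ranged from 1.45 to 1.88 over the other 4 scalings, and it was called with any 1 array left out (adjusted p up to 0.0194). The shTCF1 call was lost without either control array (adjusted p up to 0.061). The other NRARP probe, A_33_P3337267, was not well above background on any array, read 2.80 to 2.88, and has no test and no fold.

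DTX1 rose by similar amounts in both hairpin groups. It encodes Deltex1, a ubiquitin ligase that binds Notch receptors and is induced by Notch. It read 10.38 and 10.29 on the control arrays, 11.21 and 11.11 on the shGATA3-labelled arrays and 11.16 and 10.99 on those labelled shTCF1. All 4 hairpin arrays stood above both control arrays, and the hairpin groups overlapped. The rise was 1.77-fold on the shGATA3-labelled arrays (log2 difference 0.82, SE 0.11, adjusted p = 0.0176 in limma) and 1.67-fold under shTCF1 (0.74, SE 0.11, adjusted p = 0.0141). The direct difference was 0.08 (95% interval -0.20 to 0.36, adjusted p = 0.716). With 1 array left out, the calls held in 2 of 6 fits for shGATA3, where leaving out either control array or either shGATA3-labelled array ended them, and in 3 of 6 for shTCF1, where leaving out either control array or shTCF1 replicate 1 did.

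HES1 fell in both hairpin groups, the only member probe with a called fall. HES1 is a basic helix-loop-helix repressor and a classical Notch target. It read 8.48 and 8.49 on the control arrays, 7.95 and 7.85 on the shGATA3-labelled arrays and 7.79 and 7.99 on those labelled shTCF1. Both control arrays stood above the 4 hairpin arrays. The level was 1.5-fold lower on the shGATA3-labelled arrays (log2 difference -0.58, SE 0.11, adjusted p = 0.0415 in limma) and 1.51-fold lower under shTCF1 (-0.59, SE 0.11, adjusted p = 0.0242), and the direct difference was 0.01 (95% interval -0.27 to 0.29, adjusted p = 0.967). The call for shGATA3 was lost with 75th percentile scaling (adjusted p = 0.0545), with quantile normalization (0.0509), with the first, unconverged VSN fit (0.0507), and with any 1 array left out (0.0519 to 0.191). The call for shTCF1 held with all 4 other scalings, at differences of -0.55 to -0.37, and in 3 of 6 fits with 1 array left out, since it was lost without either control array or shTCF1 replicate 1.

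HES4, a related repressor, read 16.82 and 16.71 on the control arrays, 17.26 and 17.42 on the shGATA3-labelled arrays and 17.00 and 17.15 on those labelled shTCF1, with no saturated spot. All hairpin arrays were above both control arrays. It rose 1.49-fold on the shGATA3-labelled arrays (log2 difference 0.57, SE 0.12, adjusted p = 0.0452 in limma), while the difference of 0.31 under shTCF1 (95% interval 0.03 to 0.60) was not called (adjusted p = 0.119). Over the other 4 scalings the shGATA3 difference ran from 0.34 to 0.62 and was called in 2, and the shTCF1 difference ran from 0.01 to 0.36. The shGATA3 call was lost with the first, unconverged VSN fit (adjusted p = 0.0554) and with any 1 array left out (adjusted p 0.0655 to 0.183).

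HEY1, another helix-loop-helix repressor, read 4.83 and 4.34 on the control arrays, 5.06 and 4.80 on the shGATA3-labelled arrays and 4.67 and 4.73 on those labelled shTCF1, and on 1 control array it was not well above background. Its control SD of 0.352 was the widest of any member in any group, and its differences from control, 0.34 (95% interval -0.12 to 0.81) and 0.11 (-0.35 to 0.58), were not called. RBPJ, which brings the complex to DNA, read 12.22 and 12.15, 12.20 and 11.80, and 11.98 and 12.14 in the 3 groups, with differences from control of -0.19 (95% interval -0.57 to 0.20) and -0.12 (-0.51 to 0.26). MAML1, the coactivator, was measured by 5 spots and read 7.72 and 7.73, 7.86 and 7.62, and 7.64 and 7.62, with differences of 0.01 (95% interval -0.27 to 0.30) and -0.09 (-0.38 to 0.19). Neither gene of the complex was called in any contrast, and the intervals against control reach -0.57 for RBPJ and -0.38 for MAML1.

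The stretches before the start sites of HES1, HES4 and NRARP are shown because these targets moved in different directions, and the core letters of the RBPJ motif could be looked up in them. They are the 250 bases before the start site in RefSeq on GRCh38.p14, read 5' to 3' on the gene's strand, and capitals mark TGGGAA or its reverse complement TTCCCA. HES1 lies at chr3:194135898-194136147 on the plus strand, HES4 at chr1:1000098-1000347 on the minus strand and NRARP at chr9:137302272-137302521 on the minus strand.
HES1: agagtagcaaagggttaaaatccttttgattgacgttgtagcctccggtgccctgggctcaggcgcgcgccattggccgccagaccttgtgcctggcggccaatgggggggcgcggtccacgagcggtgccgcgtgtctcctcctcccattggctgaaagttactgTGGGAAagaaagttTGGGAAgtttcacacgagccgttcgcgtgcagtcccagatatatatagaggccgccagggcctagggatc
HES4: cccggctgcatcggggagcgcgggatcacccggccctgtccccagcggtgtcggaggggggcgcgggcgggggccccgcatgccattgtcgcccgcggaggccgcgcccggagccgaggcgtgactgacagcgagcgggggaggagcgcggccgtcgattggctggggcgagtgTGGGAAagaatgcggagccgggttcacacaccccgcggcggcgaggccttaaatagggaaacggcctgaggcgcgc
NRARP: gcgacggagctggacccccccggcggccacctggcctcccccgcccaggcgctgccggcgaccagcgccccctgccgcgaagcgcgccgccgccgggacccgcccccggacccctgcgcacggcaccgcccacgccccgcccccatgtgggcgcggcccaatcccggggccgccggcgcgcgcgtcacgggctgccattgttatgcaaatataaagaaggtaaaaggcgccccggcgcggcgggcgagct
HES1 held 2 copies, first bases at -84 and -70 from the start site, HES4 held 1 at -76, and NRARP held none. Of the 10 members 8 had an entry in the table, with 12 start sites, and 3 of the 12 windows held the letters, those of HES1, HES4 and 1 of the 5 RBPJ start sites. They were held by 20.8% of all 35116 promoter windows of this length, counting either strand. The longer run GTGGGAA, which contains the core, was in the same 3 windows and in 5.43% of all. AGATAA, letters that GATA factors bind, was in none of the 12 windows and in 9.17% of all, and CTTTGA, letters of the TCF motif, was in 1 RBPJ window and in 11.2% of all. A match is only a match of letters, and its absence says nothing beyond this window. DTX1 and HEY1 were not in the table.

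Of 61 other genes of the Notch pathway 60 had a probe named on the array and 48 a tested probe, and the brightest tested probe, by its mean over the arrays, stood for a gene. The ligands DLL1, DLL3, DLL4, JAG1 and JAG2 had no tested probe. On the shGATA3-labelled arrays, 5 of 48 genes were called against control, 2 higher and 3 lower, compared with 6.74% of all named genes counted in the same way. The median difference was -0.01 over the list and -0.03 over all named genes. CR2, a complement receptor gene, rose 2.40-fold (adjusted p = 0.00502), and TLE1, a Groucho corepressor, rose 1.40-fold (adjusted p = 0.0486). MYC fell by 0.73 on the log2 scale (adjusted p = 0.0194) and HEYL, a repressor related to HEY1, by 0.66 (adjusted p = 0.0231). KAT2A, a histone acetyltransferase, fell by 0.57 (adjusted p = 0.0489). Under shTCF1 MYC and HEYL were also called lower, at -0.587 and -0.588 (adjusted p = 0.0205 and 0.0189 in limma). Between the hairpin groups MYC and HEYL differed by -0.14 and -0.07 (adjusted p = 0.46 and 0.715 in limma). Their falls were thus not shown to be particular to shGATA3.

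Under shTCF1, 10 of 48 genes were called, 3 higher and 7 lower, against 16% of named genes, and the medians were -0.06 and -0.05. The 3 that rose were the receptor NOTCH4 by a log2 difference of 0.94 (adjusted p = 0.00853), LFNG, a sugar transferase acting on Notch, by 0.63 (adjusted p = 0.0228) and HES6 by 0.57 (adjusted p = 0.0184). NOTCH4 was dim, at 4.95 and 4.86 on the control arrays and 5.79 and 5.90 under shTCF1, though well above background on all 6 arrays. For HES6 the probes disagreed, since probe A_33_P3265359 fell by 1.11 on the log2 scale (adjusted p = 0.0083). The other LFNG probe, A_23_P8452, also went the other way, with a difference of -1.09 that was not called (adjusted p = 0.0754). On the shGATA3-labelled arrays that LFNG probe differed from control by -1.09 as well, again not called (adjusted p = 0.111 in limma). POFUT1, which adds fucose to Notch, fell by 0.95 on the log2 scale (adjusted p = 0.0191), CR2 fell by 0.93 (adjusted p = 0.00822) and KAT2A fell by 0.68 (adjusted p = 0.0199), the 3 largest falls among the brightest probes. The other POFUT1 probe, A_23_P370479, had a difference of 0.40 and was not called (adjusted p = 0.249). By role, 5 of 9 other targets, 2 of 5 receptor modifiers, 2 of 6 coactivators and 1 of 2 genes among the ligands and other receptor were called, and none of the 9 processing enzyme genes, 10 trafficking genes or 7 corepressors. These counts hold for the brightest probe of a gene. Of 18 other tested probes of 14 listed genes 5 were called under shTCF1, against 16.7% of all tested probes. Among these 5 were probes of 2 processing enzymes that fell. APH1A fell by 1.26 on the log2 scale (A_23_P930, adjusted p = 0.0264) and ADAM10 by 0.70 (A_23_P48886, adjusted p = 0.023). The other 3 were the HES6 probe above, a CR2 probe that fell by 1.33 (adjusted p = 0.00575) and a probe of MAML3, a coactivator related to MAML1, that rose by 0.62 (adjusted p = 0.044). On the shGATA3-labelled arrays these APH1A and ADAM10 probes also stood below control, at -1.02 and -0.52, neither called (adjusted p = 0.069 and 0.0722 in limma). Between the hairpin groups they differed by 0.24 and 0.18 (adjusted p = 0.608 and 0.469), so their falls were not shown to be particular to shTCF1. The APH1A, ADAM10 and MAML3 probes are named after their values were seen.

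Between the hairpin groups 3 of 48 were called, all higher on the shGATA3-labelled arrays, against 6.45% of named genes, and the medians were 0.01 over the list and 0.0031 over named genes. CR2 was 4.59-fold higher there (adjusted p = 0.000889), as its control values of 12.85 and 12.71 lay between 14.09 and 14.00 on the shGATA3-labelled arrays and 11.80 and 11.89 on those labelled shTCF1. TLE1 was 1.73-fold higher (adjusted p = 0.012) and HES5, another HES repressor, 1.66-fold higher (adjusted p = 0.0407). The other TLE1 probe, A_33_P3217719, overlapped between the hairpin groups, with a difference of -0.14 (adjusted p = 0.56), and against control it stood at 0.34 on the shGATA3-labelled arrays and 0.47 under shTCF1, neither called (adjusted p = 0.154 and 0.0507), where the brighter probe had -0.31 under shTCF1. Of the 18 other probes 2 were called between the hairpin groups, against 6.09% of all tested probes. They were CR2 at 2.16 (adjusted p = 0.00122) and HES6 A_33_P3265359 at 0.79 (adjusted p = 0.0246). For shGATA3 against control 1 of the 18 was called, CR2 at 0.83 (adjusted p = 0.0214), against 6.68% of all tested probes.

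**Figure D3:**
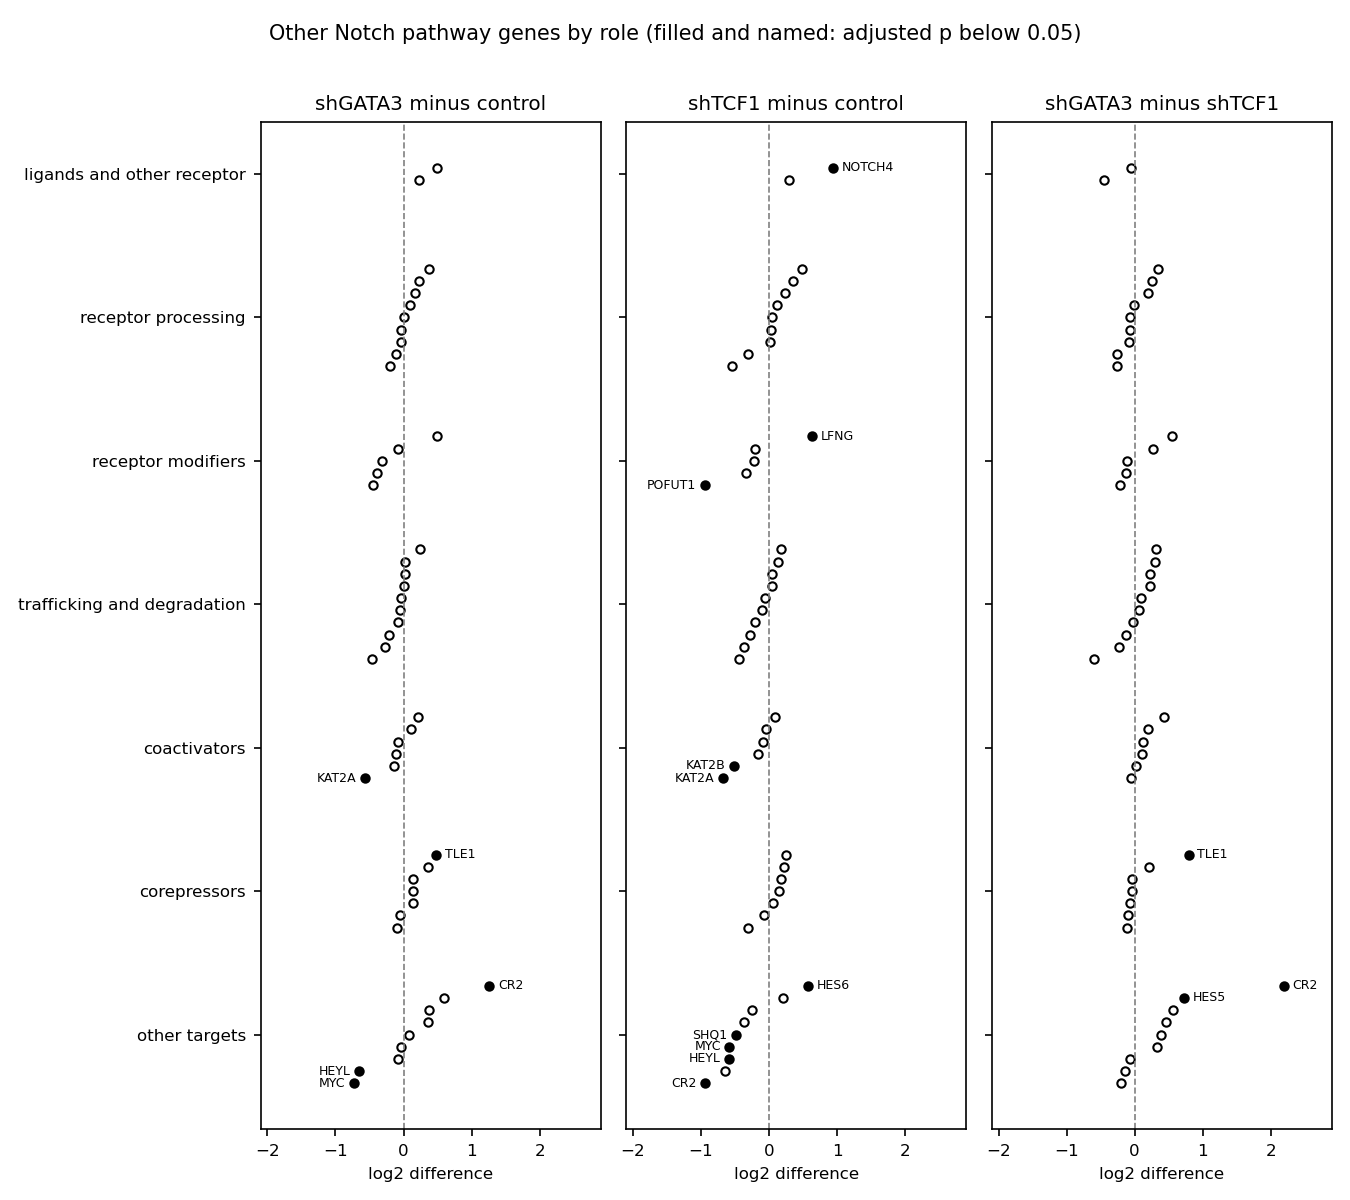
Log2 difference between group means (horizontal axis) of 48 other Notch pathway genes, each by its brightest tested probe, in rows by role, for the 3 contrasts; each point is a gene, and filled, named points had an adjusted p below 0.05. The other targets hold both the largest rise and the largest fall against control on the shGATA3-labelled arrays, CR2 at 1.26 and MYC at -0.73.

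The genes whose profile over the 6 arrays was most like that of 4 members were found by the root mean square (RMS) difference of log2 values centred on each probe's mean, among 13487 named genes with a probe well above background on all arrays. For NOTCH1 (A_33_P3370424) they were LCE1C, PRKAG3 and CALY, at RMS differences of 0.018, 0.033 and 0.035. For DTX1 they were LIPI, CNGA4 and H2BC11, at 0.059, 0.061 and 0.072. For NRARP they were ATP6V0A4, LINC01120 and NLGN4X, at 0.17, 0.17 and 0.25, and for HES1 they were TRMT61B, MAPT and KHK, at 0.0076, 0.041 and 0.044. NRARP had no named gene as near to it as the nearest genes of the other 3 members were to theirs. The RMS difference is not scaled by the range of a profile, which was 7.24 to 9.08 for NRARP and 7.79 to 8.49 for HES1. These distances therefore do not show that the NRARP profile was more unusual. With 3 groups of 2 arrays such profiles have few independent points.

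Member calls depended on limma's spread shared across probes, because an exact permutation test of 2 against 2 arrays cannot give a two-sided p under 0.333. Leaving out any 1 array lowered the share of all tested probes called in each contrast, so lost calls were not particular to the members. With 1 array left out in turn, 1 or 2 member probes were called for shGATA3 against control, 1 to 6 for shTCF1 against control and 1 for the direct comparison. The count for shTCF1 was 1 without either control array and 2 without shTCF1 replicate 1. NRARP A_33_P3337272 on the shGATA3-labelled arrays against both other groups, and NOTCH1 A_33_P3370424 under shTCF1 against control, were the member results called in all 6 such fits.

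**Figure D4:**
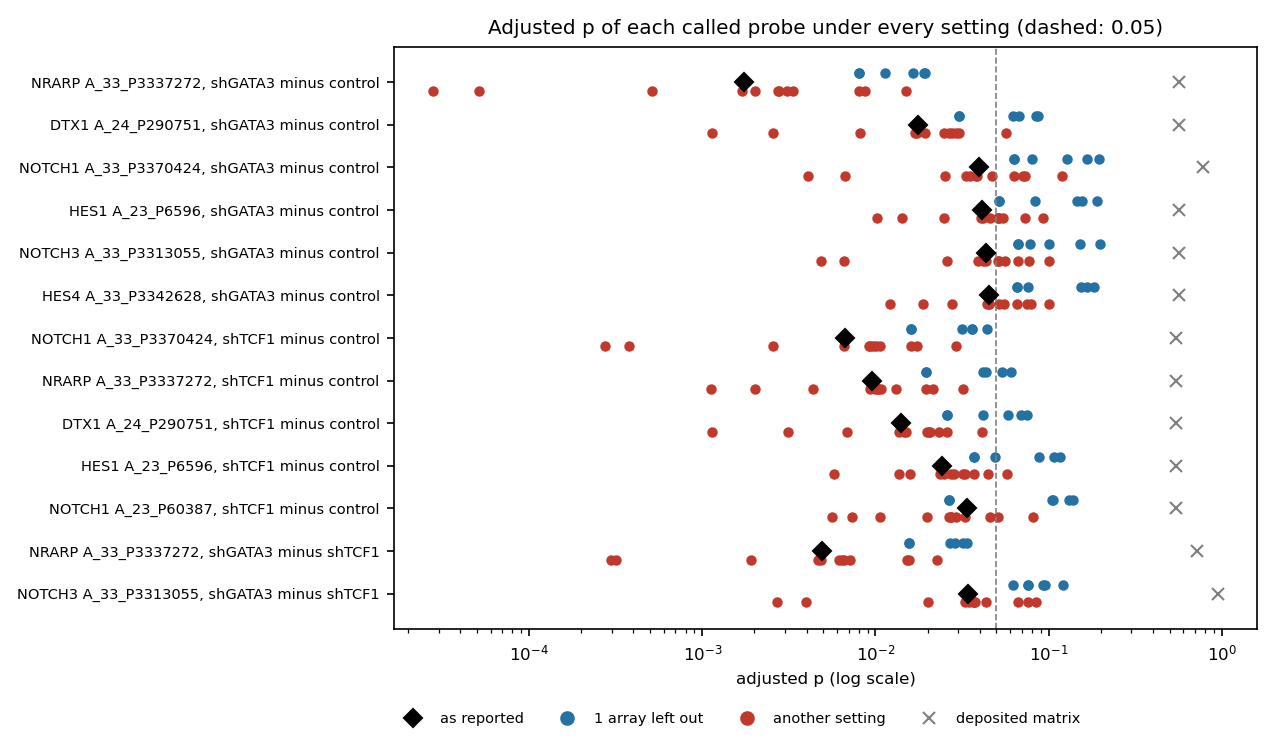
Adjusted p (horizontal log axis) of the 13 member results that were called, in rows; diamonds are the reported values, blue points leave out 1 array, red points are other settings and crosses are the deposited matrix, and the dashed line is 0.05. The blue points of NRARP on the shGATA3-labelled arrays against control reach no higher than 0.0194, and those of HES1 in the same contrast all lie above 0.05.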

How the data were processed

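RNA of 6 samples (3 groups, 2 each, taken from the sample titles) was measured on 1-colour arrays. Per the file headers, deposited intensity values are background-subtracted, detrended and unscaled between arrays, made with Feature Extraction 10.7.1.1 (the submitters' processing notes name 9.1). A log2 matrix deposited by the authors, whose methods name VSN, has no stated scale or centring. It was an alternative only, as some columns did not follow their own array's scanner values: r was 0.822 for control replicate 2 and 0.975 to 0.990 for the others. The scanner values of control replicate 2 and of shGATA3 replicate 1 correlated best with the matrix column of control replicate 1. Those of shGATA3 replicate 2 correlated best with the column of shGATA3 replicate 1.

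Control spots and spots marked as outliers were left out (71 probes lost), and spots of a probe were averaged. Variance stabilizing normalization (VSN: per array an offset and a scale, then an arsinh) was coded in R 4.3.3 (trimming quantile 0.9, 7 iterations, 5 strata) and tested on simulated data. The first code did not reach the optimum of its likelihood and was replaced after its values had been seen; the first fit is kept as an alternative. Probes that both arrays of some group had well above background were tested with limma 3.58.1 (lmFit, eBayes, two-sided, group only, all 6 arrays; 3 residual and 2.94 prior degrees of freedom). Symbols came from RefSeq accessions on GRCh38.p14 (25728 of 57105 probes used). Per array, 51.0% to 56.2% of probes stood well above background, and the number of arrays limits precision. Replicates are called independent experiments in the study's legends, and p values measure the spread between these samples.

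The members and lists were chosen with earlier results of these data known. Named were every member probe, GATA3 and TCF7, the called pathway genes (all if 6 or fewer, otherwise the 3 largest rises and 3 largest falls) and the 3 nearest profiles of 4 members.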

Additional observations from a re-analysis of the deposited data

How the results depend on the processing

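The member counts of 6, 5 and 2 called probes (shGATA3 against control, shTCF1 against control, shGATA3 against shTCF1) and the pathway counts of 5, 10 and 3 genes changed as follows. Without the filter on dim probes they were 1, 3 and 1 members and 1 and 5 pathway genes for the contrasts with control. Without that filter the share called over all tested probes fell too, from 6.68%, 16.7% and 6.09% to 0.923%, 3.88% and 1.53%. For shGATA3 against control, quantile normalization gave 3 members, the arrays of both groups alone gave 2, and normexp gave 10 pathway genes. Probes well above background on all 6 arrays gave 8 pathway genes there and 4 members in the direct comparison. An intensity trend gave 11 and 16 pathway genes in the contrasts with control and 5 members in the direct comparison, where normexp gave 5 members and 6 pathway genes and the arrays of both groups alone gave 1 member. Over all tested probes, quantile normalization gave 6.41% for shGATA3 against control, the arrays of both groups alone gave 4.58% and normexp 13.7%. Probes well above background on all 6 arrays gave 9.66% there and 7.61% in the direct comparison. An intensity trend gave 12.6% and 23.5% in the contrasts with control and 10.5% in the direct comparison. There normexp gave 10.5% and the arrays of both groups alone 3.72%. The causes were not tested. With the deposited matrix, limma called 0 members, 0 pathway genes and 0 of all 31134 tested probes in each of the 3 contrasts. The lack of calls there was thus not particular to Notch genes. The unadjusted p of limma was below 0.05 for 2, 2 and 1 members and 2, 6 and 2 pathway genes. Over all tested probes it was below 0.05 for 1814, 2652 and 1642. TCF7 A_33_P3250671 turned to 1.24 above control on the arrays labelled shTCF1.

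The first, unconverged VSN fit, added after seeing the data, gave 3 members and 3 pathway genes for shGATA3 against control: HES1, HES4 and NOTCH3 were not called (adjusted p = 0.0507, 0.0554 and 0.0562). The converged fit with every stratum trimmed, also added, gave 6, 5 and 2 members. For shGATA3 against control, the first fit called 5.52% of all tested probes. The trimmed fit called 6.84%, 16.9% and 6.18% in the 3 contrasts.

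With the replicate number as a block, 2 members and 3 pathway genes were called for shGATA3 against control and 1 member in the direct comparison. The shares over all tested probes were then 4.07% and 4%. The numbers did not pair the arrays, as replicate differences of 2 groups correlated at -0.04, -0.01 and 0.048. With 1 array left out, 1 to 2, 1 to 6 and 1 members and 1 to 4, 1 to 11 and 1 to 2 pathway genes were called; a lone array is then assumed to vary like the other groups. In each fit with 1 array left out, the share of all tested probes called was below that with all 6 arrays. Slide and scan could not be fitted as a block, since there was 1 of each.

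Over single probes, GATA3 and TCF7 included, 17 differences were called as reported, and of their 323 values under the alternatives 231 kept the call, 91 lost it and 1 reversed. Of 529 values of the differences not called as reported, 508 stayed uncalled, 19 of them with a changed sign, and 21 were called. Low signal limits HEY1, the pathway gene NOTCH4 and the dim NRARP probe. No group of 2 arrays can be examined for an outlying array.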
